A study of Mus musculus with 10 samples.

Results

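CD11b+ dendritic cells of the mouse mammary gland were compared with CD11b- dendritic cells across all genes. The comparison used 6 of the 10 libraries of the study, chosen by the cell type named in their labels: 2 of CD11b+ dendritic cells, 2 of CD11b-CD103+ dendritic cells (hereafter CD103+) and 2 of CD11b-CD103- dendritic cells (hereafter CD103-). The CD103+ and CD103- populations together formed the CD11b- side and were given equal weight. All cells were sorted from glands of adult virgin female mice of the C57BL/6 background, with no treatment named, and the other 4 libraries were from ductal and stromal macrophages of the same tissue. The labels call the replicates biological but do not say whether a library held 1 mouse or a pool, so the p-values describe the spread between these libraries.

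Dendritic cells take up antigen in tissues and present it to T cells. Conventional dendritic cells are usually divided into a type 1 lineage (cDC1), which depends on the transcription factors IRF8 and BATF3, detects dead cells through CLEC9A and cross-presents their antigens on MHC class I, and a type 2 lineage (cDC2), which depends on IRF4, carries CD11b and SIRPα and presents mainly on MHC class II to CD4 T cells. CD11b, the integrin αM chain encoded by Itgam, is also carried by monocytes and macrophages, and CD103, the integrin αE chain encoded by Itgae, is a common marker of tissue cDC1.

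Totals were 15849123 and 5745085 counts for the CD11b+ libraries, 18594628 and 22519191 for the CD103+ libraries and 11703066 and 18075324 for the CD103- libraries. Mitochondrial transcripts made up 1.88% to 3.22% of counts in CD11b+ cells and 2.13% to 6.29% in CD11b- cells. The second CD11b+ library was the shallowest of the 6, and there 3 counts corresponded to 0.539 CPM. CPM, counts scaled for depth, was taken over library totals after TMM scaling in edgeR. Log2 fold changes are CD11b+ over CD11b-, given with their standard error, and adjusted p-values come from the quasi-likelihood test of edgeR, corrected over the 15681 genes tested by the Benjamini-Hochberg method.

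The sorting marker followed the labels. Itgam (gene ID 16409, chromosome 7, 128062640 to 128118491, GRCm38) stood at 701 and 556 CPM in CD11b+ cells, against 9.45 and 7.28 CPM in CD103+ and 10.8 and 11.4 CPM in CD103- cells (log2 fold change 6.02 ± 0.21, adjusted p = 1.51e-07). Both CD11b+ libraries lay far above the 4 CD11b- libraries, whose own values spanned a narrow range. Itgae was at 1.10 and 0.359 CPM in CD11b+ cells, against 158 and 172 CPM in CD103+ and 9.39 and 3.80 CPM in CD103- cells (log2 fold change -5.26 ± 0.60, adjusted p = 0.000205). The CD103- libraries lay below the CD103+ libraries and still above the CD11b+ libraries.

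Of the 15681 genes tested, 2202 were higher in CD11b+ cells (14.0%) and 1727 were lower (11.0%) at an adjusted p under 0.05, with a median log2 fold change of -0.07 over all genes. Counts of the gene lists below stand against these 2 shares. At an unadjusted p under 0.05 there were 5745 genes. Both CD11b+ libraries lay above all 4 CD11b- libraries at 3733 genes (23.8%) and below all 4 at 3967 (25.3%). The rule that named genes for the largest differences also required this, so for those genes it is not a separate result. Statements below that the groups did not overlap stand against these shares of 23.8% and 25.3%. Without CD11b+ replicate 1 the counts were 1141 higher and 660 lower, and without CD11b+ replicate 2 they were 1199 higher and 558 lower, of which 1138, 629, 1179 and 550 were among the genes called with all libraries. In bulk measurements of sorted cells such as these, fewer cells of a kind and less RNA per cell cannot be told apart.

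**Figure D1:**
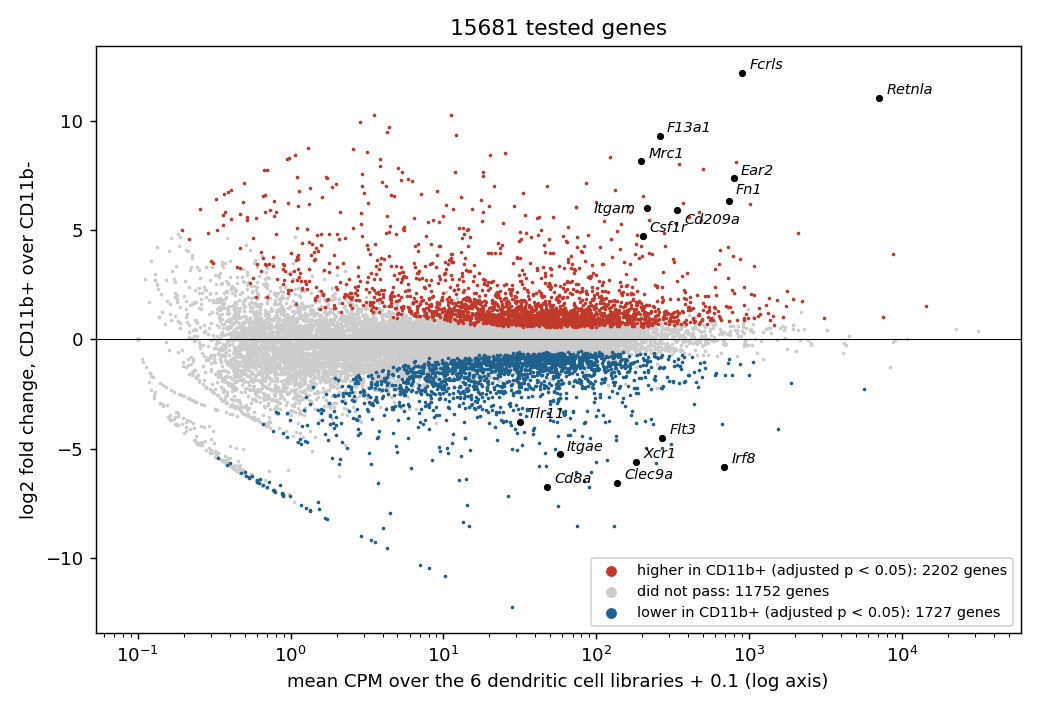
Each point is 1 of the 15681 tested genes, with its mean CPM over the 6 dendritic cell libraries plus 0.1 on a log axis and its log2 fold change, CD11b+ over CD11b-, on the vertical axis. Red points are the 2202 genes higher in CD11b+ cells, blue points the 1727 lower, grey points did not pass, and Fcrls at 12.22 and Retnla at 11.07 lie highest among the labelled genes.

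The genes with the largest differences were high in CD11b+ cells and close to absent from CD11b- cells. Fcrls, an Fc receptor-like scavenger receptor gene known from microglia and other macrophages (gene ID 80891, chromosome 3, 87250736 to 87263765, GRCm38), stood at 2658 and 2769 CPM in CD11b+ cells, against 2.06 and 0.356 CPM in CD103+ and 0.621 and 0 CPM in CD103- cells (log2 fold change 12.22 ± 0.75, adjusted p = 1.86e-06). Retnla, which encodes the secreted resistin-like molecule α, was at 18695 and 24022 CPM in CD11b+ cells, against 15.4 and 10.9 CPM in CD103+ and 10.4 and 4.84 CPM in CD103- cells (log2 fold change 11.07 ± 0.52, adjusted p = 3.79e-07). F13a1, the A chain of coagulation factor XIII, was at 883 and 676 CPM in CD11b+ cells, against 2.78 and 0.633 CPM in CD103+ and 0.276 and 1.31 CPM in CD103- cells (log2 fold change 9.33 ± 0.56, adjusted p = 1.68e-06). In each of these 3 genes both CD11b+ libraries lay at least 2 orders of magnitude above every CD11b- library. The naming rule required that they lie above, as they did at 23.8% of all genes tested.

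Among the 15 named for the largest increases were also Btbd17 (10.27 ± 0.86), the itaconate-producing enzyme gene Acod1 (9.38 ± 1.03), coagulation factor X (F10, 8.52 ± 0.81), the dicarboxylate transporter Slc13a3 (8.46 ± 0.35), the eosinophil-associated ribonuclease Ear2 (7.38 ± 0.33) and the plasminogen activator inhibitor Serpinb2 (7.66 ± 0.80). Ear2 stood at 2269 and 2430.3 CPM in CD11b+ cells, against 14.3 and 22.5 CPM in CD103+ and 9.94 and 11.7 CPM in CD103- cells, and its adjusted p was 3.57e-07. The Ear genes are near-identical copies, so the share of reads that belongs to Ear2 is uncertain. The other 6 eosinophil markers, of which Ear1, singled out after its values were seen, was called higher, summed to 11.3 to 24.001 CPM in CD11b+ libraries, against 3.45 to 5.62 CPM in CD11b- libraries, and Epx, the eosinophil peroxidase, was at 0 in all 6.

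At the other end of the scale, Gcsam, an adaptor gene known from cDC1 and germinal centre B cells, stood at 0.344 and 0.180 CPM in CD11b+ cells, against 94.4 and 122 CPM in CD103+ and 97.7 and 136 CPM in CD103- cells (log2 fold change -8.54 ± 0.84, adjusted p = 7.77e-05). Snx22, a sorting nexin, was at 0.344 and 0.539 CPM in CD11b+ cells, against 69.9 and 65.3 CPM in CD103+ and 107 and 94.7 CPM in CD103- cells (log2 fold change -7.64 ± 0.33, adjusted p = 3.37e-07). Dnase1l3, a secreted DNase, was at 1.51 and 0.180 CPM in CD11b+ cells, against 149.7 and 261 CPM in CD103+ and 63.1 and 65.4 CPM in CD103- cells (log2 fold change -6.75 ± 0.58, adjusted p = 1.88e-05). All 4 CD11b- libraries lay above both CD11b+ libraries for each, which the naming rule required and 25.3% of all genes tested showed. Gpr141b (-8.54 ± 0.82), Parvg (-6.47 ± 0.72), Sema4f (-6.06 ± 0.46), P2ry14 (-5.78 ± 0.41) and Fcrla (-5.78 ± 0.79) were also lower in CD11b+ cells.

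Ighg2c, an immunoglobulin heavy chain gene of plasma cells, had 0 counts in both CD11b+ libraries, against 54.9 and 0.871 CPM in CD103+ cells and 42.9 and 68.6 CPM in CD103- cells, and was at least 280.5-fold lower in CD11b+ cells when 3 counts over their 2 libraries are taken as the floor. That bound was 77.7-fold without CD11b+ replicate 1 and 203-fold without CD11b+ replicate 2, and 221-fold to 372.0-fold without 1 of the CD11b- libraries. The adjusted p was 0.0178 with all libraries, 0.131 without CD11b+ replicate 1 and 0.0956 without CD11b+ replicate 2. Summed CPM of 10 B and plasma cell markers was 113 to 157 CPM in CD11b+ libraries, against 201 to 1031 CPM in CD11b- libraries, and their part in the result was not tested.

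Genes that define cDC1 were low in CD11b+ cells. Of 26 cDC1 genes tested, 21 were lower and 2 higher, with a median log2 fold change of -4.53. Xcr1, the receptor for the chemokine XCL1 (gene ID 23832, chromosome 9, 123852315 to 123862029, GRCm38), stood at 7.63 and 2.69 CPM in CD11b+ cells, against 223 and 378 CPM in CD103+ and 225 and 258 CPM in CD103- cells (log2 fold change -5.61 ± 0.59, adjusted p = 6.97e-05). Clec9a, the receptor for actin filaments exposed by dead cells (gene ID 232414, chromosome 6, 129408862 to 129424764, GRCm38), stood at 2.75 and 1.08 CPM in CD11b+ cells, against 196 and 269.6 CPM in CD103+ and 159.8 and 194 CPM in CD103- cells (log2 fold change -6.58 ± 0.40, adjusted p = 3.84e-06). The CD103+ and CD103- libraries lay close to each other for both genes and did not overlap with the CD11b+ libraries. Lack of overlap was required of Clec9a by the naming rule.

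Cd8a, the CD8 α chain carried by lymphoid cDC1, was at 0.344 and 1.26 CPM in CD11b+ cells, against 45.2 and 92.4 CPM in CD103+ and 64.97 and 80.96 CPM in CD103- cells (log2 fold change -6.76 ± 0.59, adjusted p = 3.84e-05). Gpr33, a chemoattractant receptor, was at 0.206 and 0.359 CPM in CD11b+ cells, against 23.96 to 60.9 CPM in the 4 CD11b- libraries (log2 fold change -7.15 ± 0.96, adjusted p = 0.000556). Cxcr3, a receptor for interferon-induced chemokines, was at 1.79 and 0.539 CPM in CD11b+ cells, against 33.9 to 54.9 CPM in the 4 CD11b- libraries (log2 fold change -5.06 ± 0.45, adjusted p = 2.34e-05). The groups did not overlap in any of the 3, which the naming rule required of Cd8a and Gpr33. Irf8, the transcription factor on which cDC1 depend, stood at 19.9 and 15.3 CPM in CD11b+ cells, against 766 and 997 CPM in CD103+ and 1221 and 1113 CPM in CD103- cells (log2 fold change -5.84 ± 0.38, adjusted p = 2.57e-06).

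The members that went the other way were Batf3 and Slamf8. Batf3, a transcription factor required for cDC1 development, was at 108 and 153 CPM in CD11b+ cells, against 41.3 and 56.4 CPM in CD103+ and 48.9 and 56.2 CPM in CD103- cells (log2 fold change 1.36 ± 0.22, adjusted p = 0.00137). Both CD11b+ libraries lay above all 4 CD11b- libraries, opposite to Irf8. Slamf8, a receptor of the SLAM family named here after its values were seen, was at 270.3 and 202 CPM in CD11b+ cells, against 65.3 to 121 CPM in the 4 CD11b- libraries (log2 fold change 1.34 ± 0.36, adjusted p = 0.0194), and its adjusted p was 0.176 without CD11b+ replicate 1, 0.0597 without CD11b+ replicate 2 and 0.0632 without CD103+ replicate 1. The list had 1 gene higher and 20 or 19 lower without CD11b+ replicate 1 or 2.

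**Figure D2:**
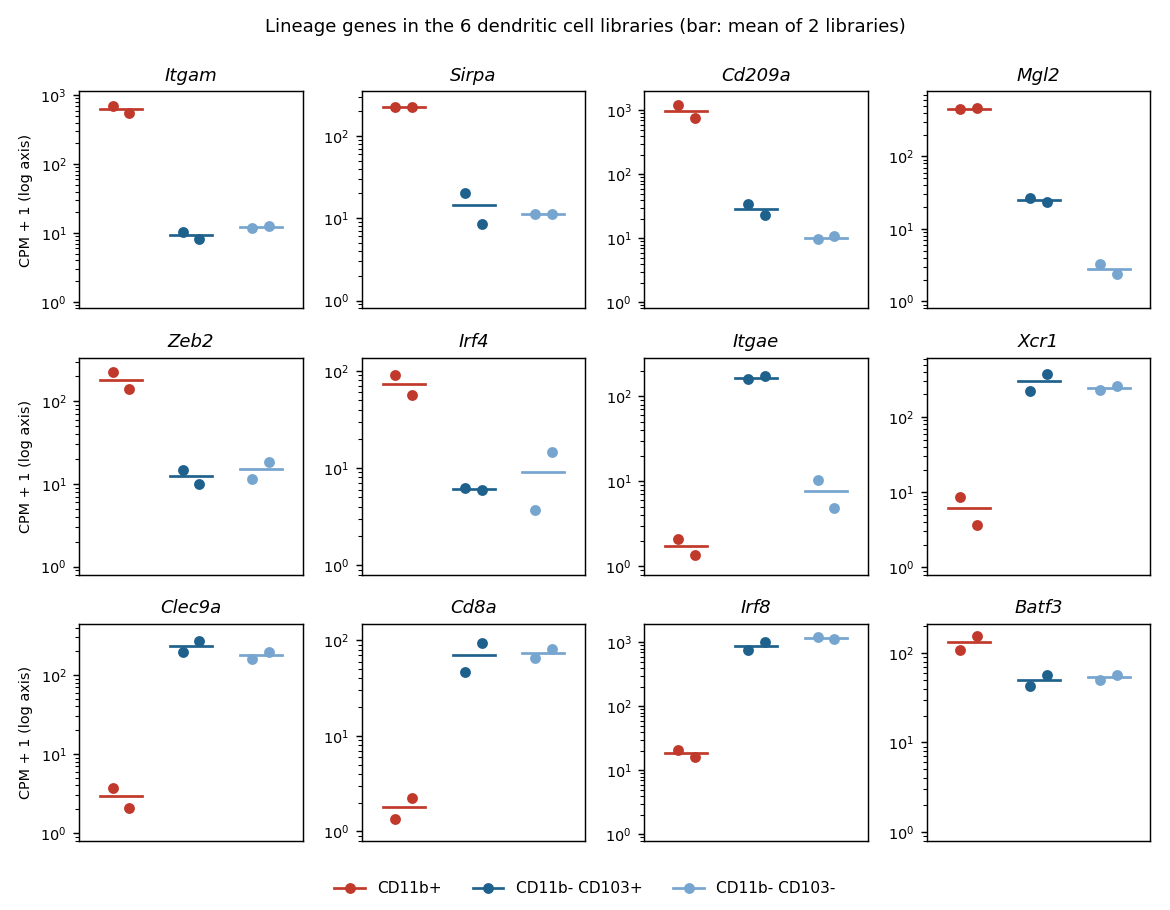
CPM plus 1 (log axis) of 12 lineage genes in the 6 dendritic cell libraries, 1 point per library with a bar at the mean of 2. Itgam, Sirpa, Cd209a, Mgl2, Zeb2, Irf4 and Batf3 are higher in the CD11b+ libraries, and Itgae, Xcr1, Clec9a, Cd8a and Irf8 are lower.

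Genes of cDC2 were mostly high in CD11b+ cells, with 17 of 27 higher, 3 lower and a median log2 fold change of 2.69. Sirpa, the receptor that binds CD47, stood at 223 and 226 CPM in CD11b+ cells, against 19.5 and 7.60 CPM in CD103+ and 10.1 and 10.1 CPM in CD103- cells (log2 fold change 4.26 ± 0.32, adjusted p = 7.6e-06). Cd209a, a mannose-binding lectin of the DC-SIGN family, was at 1198 and 763 CPM in CD11b+ cells, against 33.5 and 22.3 CPM in CD103+ and 8.77 and 9.81 CPM in CD103- cells (log2 fold change 5.93 ± 0.35, adjusted p = 1.63e-06). Clec10a, a galactose-binding lectin, was at 119.7 and 111 CPM in CD11b+ cells, against 2.55 to 7.13 CPM in the 4 CD11b- libraries (log2 fold change 4.77 ± 0.22, adjusted p = 3.79e-07). None of the CD11b- libraries reached the CD11b+ range for these 3 genes.

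Mgl2, the paralog of Clec10a, stood at 448 and 464 CPM in CD11b+ cells, against 25.3 and 22.7 CPM in CD103+ and 2.28 and 1.36 CPM in CD103- cells (log2 fold change 6.12 ± 0.25, adjusted p = 2.25e-07). It was highest in CD11b+ cells, but CD103+ cells also lay above CD103- cells (log2 difference 3.75 ± 0.32, adjusted p = 0.00128). The dendritic cell inhibitory receptor genes Clec4a1 (4.99 ± 0.34), Clec4a2 (5.45 ± 0.29) and Clec4a3 (8.35 ± 0.39) were all higher. They are paralogs that lie in a cluster, so reads may be shared among them.

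The 3 cDC2 genes lower in CD11b+ cells, named after their values were seen, were Il1r2, the decoy receptor of interleukin 1 (-2.54 ± 0.48), Cd4, the T cell coreceptor (-2.49 ± 0.53), and Notch2, a receptor needed by some splenic cDC2 (-1.24 ± 0.29). Cd4 was at 0.481 and 0.180 CPM in CD11b+ cells, against 1.87 to 2.77 CPM in the 4 CD11b- libraries, a low level throughout. The count of lower genes on the list was 1 without CD11b+ replicate 1, 0 without CD11b+ replicate 2, and 6 by DESeq2.

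Genes shared by conventional dendritic cells were mostly lower in CD11b+ than in CD11b- cells. The CD11b- cells were high in cDC1 genes, so this comparison cannot check the label of the CD11b+ cells. Of 19 dendritic cell core genes, 14 were lower in CD11b+ cells and 1, the myeloid factor Spi1, was higher, with a median of -2.10. Flt3, the receptor for the growth factor that sustains conventional dendritic cells, stood at 16.8 and 18.1 CPM in CD11b+ cells, against 314 and 520.2 CPM in CD103+ and 416 and 342 CPM in CD103- cells (log2 fold change -4.51 ± 0.46, adjusted p = 6.01e-05). Zbtb46, a transcription factor of conventional dendritic cells, was at 19.3 and 8.98 CPM in CD11b+ cells, against 55.9 and 60.9 CPM in CD103+ and 75.8 and 61.3 CPM in CD103- cells (log2 fold change -2.13 ± 0.31, adjusted p = 0.000628). Both CD11b+ libraries lay below every CD11b- library for each.

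Btla, an inhibitory receptor for HVEM, was at 10.9 and 2.69 CPM in CD11b+ cells, against 284 to 462 CPM in the 4 CD11b- libraries (log2 fold change -5.65 ± 0.74, adjusted p = 0.000317). Adam19, a metalloprotease, was at 14.7 and 11.1 CPM in CD11b+ cells, against 157 to 210.3 CPM in the 4 CD11b- libraries (log2 fold change -3.73 ± 0.42, adjusted p = 0.000117). Kit, the receptor for stem cell factor, was at 19.05 and 37.2 CPM in CD11b+ cells, against 172 to 248 CPM in the 4 CD11b- libraries (log2 fold change -2.89 ± 0.57, adjusted p = 0.00396). Its adjusted p was 0.0661 without CD11b+ replicate 1. Jaml (-2.46 ± 0.29) and Slamf7 (-2.23 ± 0.46) were lower as well, Slamf7 with an adjusted p of 0.0828 without CD11b+ replicate 2. Without either CD11b+ library, 10 of the 19 were lower and none was higher.

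Core genes also included ones that did not pass. Itgax, which encodes CD11c, was at 134 and 77.6 CPM in CD11b+ cells, against 162 and 146 CPM in CD103+ and 116 and 91.8 CPM in CD103- cells. Itgax had a log2 fold change of -0.25 ± 0.26 (95% interval -0.82 to 0.32, adjusted p = 0.52). Id2, an inhibitor of DNA-binding factors, was at 1163 and 686 CPM in CD11b+ cells, against 774 to 1312 CPM in the 4 CD11b- libraries. Id2 had a log2 fold change of -0.04 ± 0.32 (95% interval -0.74 to 0.66, adjusted p = 0.948). The groups overlapped for both.

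Monocyte and macrophage genes were mostly high in CD11b+ cells. Of 31 tested, 18 were higher and 6 lower, with a median of 2.25. Csf1r is also a member of the cDC2 list. Csf1r, the receptor for macrophage colony-stimulating factor, stood at 551 and 566 CPM in CD11b+ cells, against 42.6 and 16.03 CPM in CD103+ and 19.1 and 10.8 CPM in CD103- cells (log2 fold change 4.74 ± 0.40, adjusted p = 1.52e-05). Adgre1, which encodes F4/80, was at 331 and 253 CPM in CD11b+ cells, against 4.96 and 5.07 CPM in CD103+ and 4.35 and 1.49 CPM in CD103- cells (log2 fold change 6.27 ± 0.37, adjusted p = 1.63e-06). Mrc1, the mannose receptor CD206, was at 681 and 495 CPM in CD11b+ cells, against 2.46 and 1.46 CPM in CD103+ and 2.07 and 2.17 CPM in CD103- cells (log2 fold change 8.16 ± 0.32, adjusted p = 2.25e-07). For all 3 the lower of the CD11b+ libraries was above the highest CD11b- library, which the naming rule required of Mrc1.

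Fn1, fibronectin, was at 2305 and 2008 CPM in CD11b+ cells, against 10.6 to 40.5 CPM in the 4 CD11b- libraries (log2 fold change 6.34 ± 0.49, adjusted p = 7.87e-06). C1qb, a chain of complement C1q, was at 80.5 and 153 CPM in CD11b+ cells, against 1.18 to 4.57 CPM in the 4 CD11b- libraries (log2 fold change 5.54 ± 0.32, adjusted p = 1.44e-06). Lyz2, the myeloid lysozyme, named after its values were seen, was at 22099 and 24012 CPM in CD11b+ cells, against 959 to 2116 CPM in the 4 CD11b- libraries (log2 fold change 3.92 ± 0.38, adjusted p = 4.39e-05). Cd14, the coreceptor for lipopolysaccharide, was at 2998 and 2738 CPM in CD11b+ cells, against 383 to 1503 CPM in the 4 CD11b- libraries (log2 fold change 1.83 ± 0.34, adjusted p = 0.00283). Mertk, a receptor for dying cells, was at 5.30 and 10.95 CPM in CD11b+ cells, against 1.49 to 6.39 CPM in the 4 CD11b- libraries. Mertk had a log2 fold change of 1.05 ± 0.52 (95% interval -0.09 to 2.19, adjusted p = 0.169). Among the 6 lower members were Treml4, Lyve1, Plac8, Ly6c2 and Nr4a1, named after their values were seen apart from Nr4a1, and of these Plac8 and Ly6c2 are known from monocytes. Ly6c2 was at 2.41 and 1.97 CPM in CD11b+ cells, against 9.05 and 8.67 CPM in CD103+ and 8.22 and 38.1 CPM in CD103- cells. Against CD103+ cells alone Ly6c2 did not pass (-1.99 ± 0.70, adjusted p = 0.0686). Leaving out CD11b+ replicate 1, and likewise replicate 2, gave 17 higher and 3 lower.

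The macrophage libraries of the study set these levels on a scale, in a comparison of CD11b+ cells with the mean of both macrophage populations that was added after the data were seen, and in which 22.9% of genes were called in either direction. Mitochondrial transcripts made up 0.631% and 0.891% of counts in ductal and 24.8% and 23.1% in stromal macrophages. With mitochondrial genes left out, Flt3, Zbtb46, Fcgr1, C1qb, Adgre1 and Csf1r kept their direction and their side of the threshold. Flt3 stood at 16.8 and 18.1 CPM in CD11b+ cells, against 1.14 and 2.27 CPM in ductal and 0.442 and 0 CPM in stromal macrophages (log2 difference 4.77 ± 0.47, adjusted p = 4.98e-05). Zbtb46 was also above the macrophages (2.02 ± 0.31, adjusted p = 0.000879). Fcgr1, the high-affinity IgG receptor CD64 used to define tissue macrophages, was at 2.54 and 2.69 CPM in CD11b+ cells, against 103.4 and 152 CPM in ductal and 131 and 123 CPM in stromal macrophages (-5.61 ± 0.47, adjusted p = 1.73e-05). C1qb was at 80.5 and 153 CPM in CD11b+ cells, against 4152 and 4087 CPM in ductal and 2184 and 1546 CPM in stromal macrophages (-4.57 ± 0.38, adjusted p = 1.63e-05). CD11b+ cells lay below CD11b- cells and above macrophages for Flt3 and Zbtb46, and above CD11b- cells and below macrophages for Fcgr1 and C1qb. Other members of the core and macrophage lists, chosen after their values were seen, did not all follow this. Btla (4.53 ± 0.85) and Jaml (3.09 ± 0.27) of the core genes were above the macrophage mean. Adam19 (-2.03 ± 0.39) was below that mean, and Kit did not pass (-0.59 ± 0.51, adjusted p = 0.451). The macrophage genes Mrc1 (1.38 ± 0.26), F13a1 (2.63 ± 0.48), Fn1 (5.69 ± 0.47) and Lyz2 (1.18 ± 0.37) were above that mean. Stromal macrophages were highest for Mrc1 and F13a1.

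Adgre1 was at 331 and 253 CPM in CD11b+ cells, against 1045 and 828 CPM in ductal and 386 and 231 CPM in stromal macrophages (-0.88 ± 0.35, adjusted p = 0.101), and the CD11b+ libraries lay within the range of the stromal macrophages. Csf1r was at 551 and 566 CPM in CD11b+ cells, against 4317 and 3427 CPM in ductal and 614 and 359 CPM in stromal macrophages (-1.30 ± 0.41, adjusted p = 0.0436), also within the stromal range, and the call was lost without either CD11b+ library. CD11b+ cells thus held Flt3 and Zbtb46 below the level of CD11b- cells together with macrophage genes, and the population is called by its label here.

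**Figure D3:**
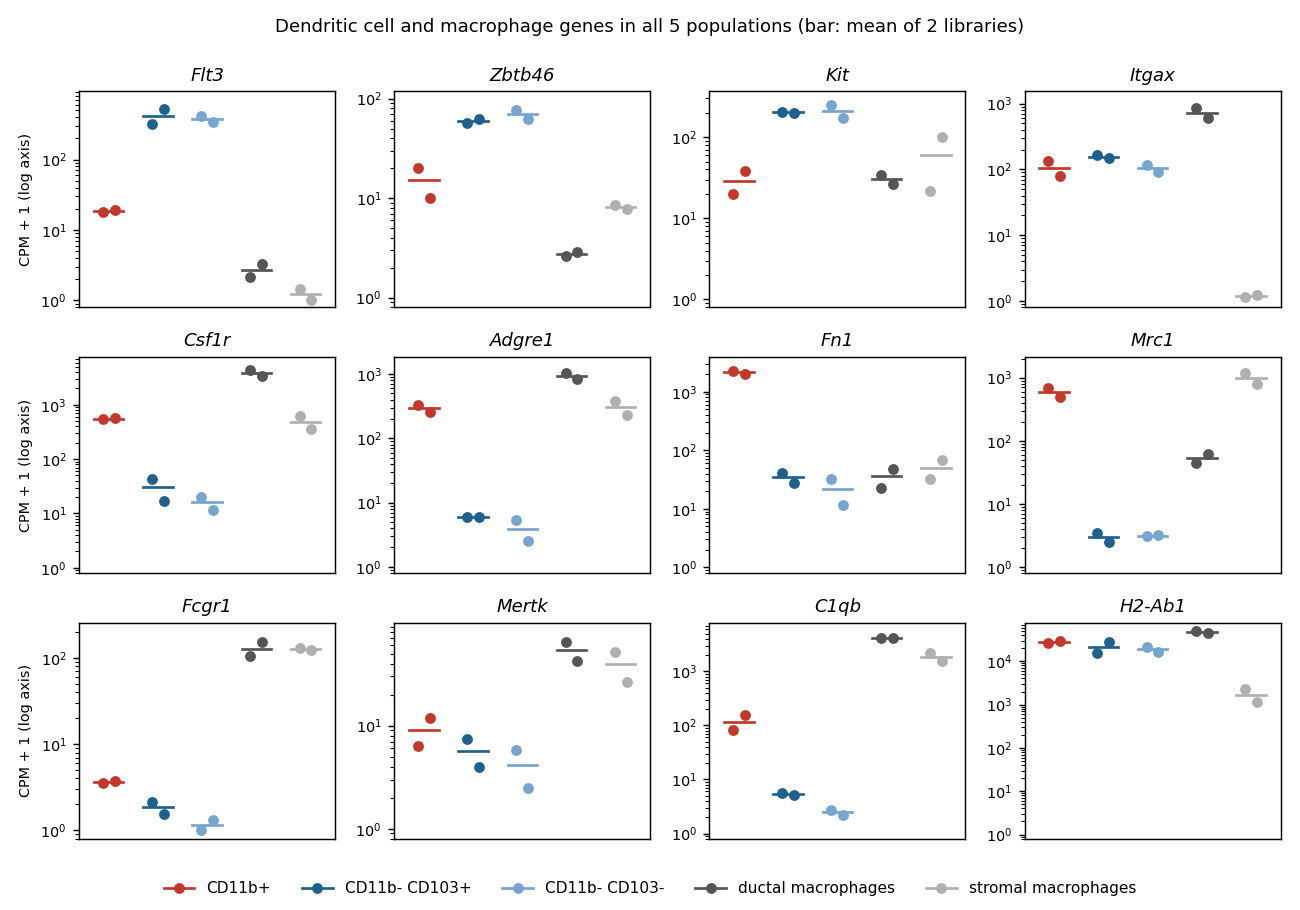
CPM plus 1 (log axis) of 12 dendritic cell and macrophage genes in the libraries of all 5 populations, 1 point per library with a bar at the mean of 2, CD11b+ cells at the left. Flt3, Zbtb46 and Kit are lower in CD11b+ than in CD11b- libraries, Csf1r, Adgre1, Fn1, Mrc1 and C1qb are higher, Fcgr1, Mertk and C1qb lie below both macrophage populations, and Fn1 lies above both.

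Lineage transcription factors were divided, with 11 of 34 higher and 11 lower. Zeb2, a repressor needed for monocytes and cDC2, stood at 222 and 139 CPM in CD11b+ cells, against 13.9 and 9.07 CPM in CD103+ and 10.6 and 17.5 CPM in CD103- cells (log2 fold change 3.83 ± 0.30, adjusted p = 1.05e-05). Irf4, the factor of cDC2, was at 89.2 and 55.5 CPM in CD11b+ cells, against 5.20 and 4.95 CPM in CD103+ and 2.69 and 13.6 CPM in CD103- cells (log2 fold change 3.49 ± 0.49, adjusted p = 0.000498). Cebpb, a factor of monocytes, was at 2203 and 3182 CPM in CD11b+ cells, against 201 to 337 CPM in the 4 CD11b- libraries (log2 fold change 3.36 ± 0.29, adjusted p = 2e-05). All 3 were without overlap between the groups.

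Klf4, a factor of monocytes and of some cDC2, was at 289.6 and 268 CPM in CD11b+ cells, against 118 to 186 CPM in the 4 CD11b- libraries (log2 fold change 0.77 ± 0.25, adjusted p = 0.0418). That call did not hold in 5 of the 6 fits that left out 1 library, with adjusted p-values up to 0.227. There were 7 or 8 genes higher and 6 or 5 lower without CD11b+ replicate 1 or 2, and 7 higher without CD103+ replicate 1.

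Of 28 C-type lectin receptor genes, which encode receptors for sugars and damaged cells, 16 were higher and 5 lower in CD11b+ cells. Clec4e, the receptor Mincle for mycobacterial glycolipids, stood at 1336 and 735 CPM in CD11b+ cells, against 0.834 and 3.52 CPM in CD103+ and 5.32 and 9.18 CPM in CD103- cells (log2 fold change 8.02 ± 0.55, adjusted p = 3.96e-06). Clec4a3 was at 408 and 320.4 CPM in CD11b+ cells, against 0.318 and 0.475 CPM in CD103+ and 4.07 and 2.17 CPM in CD103- cells (log2 fold change 8.35 ± 0.39, adjusted p = 3.79e-07). Both groups were far apart, and lack of overlap was required of both genes by the naming rule. The 2 CD103- libraries lay above the 2 CD103+ libraries for each. Among the lower members were Clec9a, given above, and Ly75 and Cd207, named after their values were seen. Ly75, the uptake receptor DEC-205, was at 1.99 and 1.44 CPM in CD11b+ cells, against 43.01 to 112 CPM in the 4 CD11b- libraries (log2 fold change -5.20 ± 0.41, adjusted p = 1.83e-05). Cd207, langerin, was at 3.58 and 0.898 CPM in CD11b+ cells, against 18.4 to 70.9 CPM in the 4 CD11b- libraries (log2 fold change -3.72 ± 0.66, adjusted p = 0.00213).

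Fc receptors and their signalling parts were higher in 6 of 12 genes and lower in 1, Fcgrt, whose call was lost without either CD11b+ library. Fcgr3, an activating receptor for IgG, was at 601 and 594 CPM in CD11b+ cells, against 7.54 and 10.6 CPM in CD103+ and 4.76 and 3.80 CPM in CD103- cells (log2 fold change 6.58 ± 0.27, adjusted p = 2.25e-07). Fcer1g, the signalling chain of Fc receptors, was at 1391 and 1566 CPM in CD11b+ cells, against 111 and 202 CPM in CD103+ and 172 and 144 CPM in CD103- cells (log2 fold change 3.24 ± 0.27, adjusted p = 1.65e-05). Syk, the kinase recruited by that chain, was at 390.5 and 308 CPM in CD11b+ cells, against 86.5 to 128 CPM in the 4 CD11b- libraries (log2 fold change 1.73 ± 0.19, adjusted p = 9.95e-05). No library of the CD11b- side reached the CD11b+ libraries in any of the 3. Fcgr1 was at 2.54 and 2.69 CPM in CD11b+ cells, against 0 to 1.15 CPM in the 4 CD11b- libraries (log2 fold change 2.67 ± 0.49, adjusted p = 0.0028), a low level in all 6, and its adjusted p was 0.104 with the 4 CD11b- libraries taken as 1 group.

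Inhibitory and paired receptors formed the list with the highest median, 2.88, and 22 of 31 were higher against 3 lower. Pilra, an inhibitory receptor for sialylated glycoproteins, stood at 269 and 236 CPM in CD11b+ cells, against 5.52 and 2.69 CPM in CD103+ and 1.17 and 0.452 CPM in CD103- cells (log2 fold change 7.15 ± 0.34, adjusted p = 3.79e-07). Its activating partners Pilrb1 and Pilrb2 were higher too. Pilrb1 was at 95.04 and 97.8 CPM in CD11b+ cells, against 0.724 to 6.23 CPM in the 4 CD11b- libraries (log2 fold change 5.70 ± 0.32, adjusted p = 1.11e-06). Pilrb2 was at 85.96 and 108 CPM in CD11b+ cells, against 0.136 to 4.13 CPM in the 4 CD11b- libraries (log2 fold change 6.72 ± 0.42, adjusted p = 1.99e-06). The CD103+ libraries lay above the CD103- libraries for all 3, and both were far below the CD11b+ libraries. Cd300lb (5.97 ± 0.45) and Sirpb1b (6.24 ± 0.91), both activating receptors, were among the other higher members.

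The Pilr genes are neighbours on chromosome 5, and stretches of their promoters are shown because the genes moved together. The windows are from RefSeq promoters of GRCm38.p6 (250 bases before to 50 after the start), on the minus strand, read 5′ to 3′, with a match to the core of the interferon-stimulated response element (GAAANNGAAA, where N is any base, searched on both strands) in capitals. They lie at chr5:137836402-137836501, chr5:137858227-137858299 and chr5:137871936-137872008.
Pilra: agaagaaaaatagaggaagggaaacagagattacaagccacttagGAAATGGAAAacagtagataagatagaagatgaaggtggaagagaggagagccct
Pilrb1: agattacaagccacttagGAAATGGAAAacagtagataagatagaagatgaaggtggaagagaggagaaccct
Pilrb2: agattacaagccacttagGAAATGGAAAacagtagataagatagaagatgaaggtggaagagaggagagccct
Over the 73 bases shared by the 3 windows, Pilra and Pilrb2 were identical in 73 and Pilrb1 matched each of them in 72. The windows lie before the gene starts and do not show how alike the transcripts are. Reads of one copy may also be counted for another, which was not tested. The motif was present in 3.44% of all 32851 promoters. By gene, it was in 12.5% of the named genes that were higher (8 of 64), 16.3% of those that were lower (7 of 43) and 3.99% of all genes. The 8 include Pilra, Pilrb1 and Pilrb2, whose near-identical stretches are not separate matches. A second motif searched, the ETS-IRF composite element (GGAANNGAAA), was in 6.25% of the higher, 4.65% of the lower and 3.16% of all genes. None of these differences in share was tested. The lists behind the named genes included interferon-response genes.

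Toll-like receptors and other sensors were higher at 12 of 27 genes and lower at 4. Tlr2, the sensor of bacterial lipopeptides, and Tlr7, a sensor of single-stranded RNA, are named after their values were seen. Tlr2 was at 262 and 174 CPM in CD11b+ cells, against 20.4 to 39.98 CPM in the 4 CD11b- libraries (log2 fold change 2.91 ± 0.29, adjusted p = 4.61e-05). Tlr7 was at 10.9 and 5.74 CPM in CD11b+ cells, against 0 to 3.66 CPM in the 4 CD11b- libraries (log2 fold change 3.24 ± 0.65, adjusted p = 0.00447). The adjusted p of Tlr7 was 0.109 without CD11b+ replicate 1 and 0.0981 with the 4 CD11b- libraries as 1 group, and against CD103- cells alone Tlr7 did not pass (1.76 ± 0.72, adjusted p = 0.122). Tlr8, another RNA sensor, was at 13.8 and 9.51 CPM in CD11b+ cells, against 3.53 and 0 CPM in CD103+ and 0 and 0 CPM in CD103- cells (log2 fold change 6.61 ± 1.24, adjusted p = 0.00394). The adjusted p of Tlr8 was 0.096 with the 4 CD11b- libraries as 1 group. Only 1 CD11b- library, CD103+ replicate 1, held counts of Tlr8. Tlr6, the partner of TLR2, was at 6.60 and 3.95 CPM in CD11b+ cells, against 0.0690 to 1.03 CPM in the 4 CD11b- libraries (log2 fold change 3.49 ± 0.64, adjusted p = 0.0026).

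Sensors known from cDC1 went the other way. Tlr3, the sensor of double-stranded RNA, stood at 1.65 and 1.62 CPM in CD11b+ cells, against 101.2 and 100.4 CPM in CD103+ and 99.6 and 137 CPM in CD103- cells (log2 fold change -6.05 ± 0.49, adjusted p = 1.21e-05). Tlr11, which detects profilin of parasites, was at 4.40 and 1.80 CPM in CD11b+ cells, against 28.1 and 42.6 CPM in CD103+ and 62.5 and 50.8 CPM in CD103- cells (log2 fold change -3.76 ± 0.79, adjusted p = 0.00564). The adjusted p of Tlr11 was 0.0799 without CD11b+ replicate 2. Tlr12, its partner, had 1 count in the CD11b+ libraries together, against 18.4 to 24.8 CPM in the 4 CD11b- libraries, a CD11b- to CD11b+ ratio of 440.2 with a 95% counting interval of 79.01 to 17390. The groups were far apart for all 3, and lack of overlap was required of Tlr3 by the naming rule. Both CD11b+ libraries lay below all 4 CD11b- libraries at 25.3% of all genes tested. Of the 27 sensors, 6 or 9 were higher without CD11b+ replicate 1 or 2.

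Chemokine receptors were divided evenly, with 6 of 25 higher and 6 lower (24.0% each, against 14.0% and 11.0% of all genes tested). Ccr1, a receptor for inflammatory CC chemokines, stood at 495 and 454 CPM in CD11b+ cells, against 34.3 and 11.3 CPM in CD103+ and 1.80 and 4.12 CPM in CD103- cells (log2 fold change 5.83 ± 0.45, adjusted p = 7.87e-06). Ccr2, the receptor by which monocytes leave the bone marrow, was at 1407 and 1014 CPM in CD11b+ cells, against 186 and 278 CPM in CD103+ and 305 and 449.6 CPM in CD103- cells (log2 fold change 2.03 ± 0.32, adjusted p = 0.00097). Both CD11b+ libraries were the highest of the 6 for each gene.

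Ccr7, which guides dendritic cells to lymph nodes, was at 147 and 92.8 CPM in CD11b+ cells, against 668 and 1235 CPM in CD103+ and 319 and 309 CPM in CD103- cells (log2 fold change -2.18 ± 0.33, adjusted p = 0.00114). Gpr183, an oxysterol receptor that positions cells in lymphoid tissue, was at 9.70 and 5.92 CPM in CD11b+ cells, against 74.1 to 125 CPM in the 4 CD11b- libraries (log2 fold change -3.59 ± 0.27, adjusted p = 7.15e-06). With Ccr7, 10 of 26 genes of mature CCR7+ dendritic cells were lower (38.5%, against 11.0% of all genes tested). Of the rest, 4 were higher (15.4%, against 14.0% of all genes tested) and 12 did not pass. The members of this list named in this paragraph are all lower ones. Fscn1, an actin bundler of mature dendritic cells, was at 18.6 and 16.3 CPM in CD11b+ cells, against 149 and 631 CPM in CD103+ and 71.6 and 33.97 CPM in CD103- cells (log2 fold change -3.03 ± 0.58, adjusted p = 0.00356). The adjusted p of Fscn1 was 0.0578 without CD11b+ replicate 2. Apol7c was at 1.10 and 0.718 CPM in CD11b+ cells, against 37.8 and 139 CPM in CD103+ and 9.87 and 7.10 CPM in CD103- cells (log2 fold change -4.82 ± 0.67, adjusted p = 0.00102). Cacnb3 was at 9.83 and 5.21 CPM in CD11b+ cells, against 95.4 and 242 CPM in CD103+ and 33.1 and 35.5 CPM in CD103- cells (log2 fold change -3.29 ± 0.43, adjusted p = 0.000336). CD103+ replicate 2 was the highest library for these 4 mature-cell genes, and both CD11b+ libraries were the lowest. Of the 26, 1 or 2 were higher and 9 or 5 lower without CD11b+ replicate 1 or 2, and 2 were higher without CD103+ replicate 1 or without CD103- replicate 1.

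Chemokine genes were higher at 13 of 24 and lower at 4. Ccl9, a ligand of CCR1, stood at 2829.98 and 2029.99 CPM in CD11b+ cells, against 8.54 and 12.3 CPM in CD103+ and 6.84 and 7.73 CPM in CD103- cells (log2 fold change 8.12 ± 0.29, adjusted p = 1.51e-07). Ccl24, an eosinophil attractant, was at 40.4 and 66.1 CPM in CD11b+ cells, against 0.0452 to 0.554 CPM in the 4 CD11b- libraries (log2 fold change 7.67 ± 0.45, adjusted p = 1.61e-06). Cxcl3, a neutrophil attractant, was at 200.5 and 79.2 CPM in CD11b+ cells, against 0.759 to 1.59 CPM in the 4 CD11b- libraries (log2 fold change 7.03 ± 0.46, adjusted p = 2.84e-06). Ccl2 and Ccl7, which attract monocytes through CCR2, were both higher in CD11b+ cells. Ccl2 was at 948 and 949 CPM in CD11b+ cells, against 17.2 to 27.96 CPM in the 4 CD11b- libraries (log2 fold change 5.28 ± 0.27, adjusted p = 6.52e-07). Ccl7 was at 408 and 414 CPM in CD11b+ cells, against 7.60 to 18.1 CPM in the 4 CD11b- libraries (log2 fold change 5.27 ± 0.33, adjusted p = 2.1e-06). The ranges of the groups were far apart in all 5, and lack of overlap was required of Ccl9 and Ccl24 by the naming rule. Both CD11b+ libraries lay above all 4 CD11b- libraries at 23.8% of all genes tested.

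The 4 lower chemokines were Cxcl9, Ccl5, Cxcl16 and Cxcl12, and 2 were lower without CD11b+ replicate 2 or without CD103- replicate 1. Cxcl9, a ligand of CXCR3 named after its values were seen, was at 19.05 and 10.8 CPM in CD11b+ cells, against 101.3 to 223 CPM in the 4 CD11b- libraries (log2 fold change -3.24 ± 0.42, adjusted p = 0.000323). Ccl5 was at 33.9 and 10.6 CPM in CD11b+ cells, against 122 and 622 CPM in CD103+ and 37.5 and 23.2 CPM in CD103- cells (log2 fold change -2.22 ± 0.63, adjusted p = 0.0255), and here the groups overlapped, with CD103+ replicate 2 far above the rest. The call of Ccl5 was lost without CD103+ replicate 2 (adjusted p = 0.0542), without CD11b+ replicate 2 (adjusted p = 0.216), without CD103- replicate 1 (adjusted p = 0.0569) and with the 4 CD11b- libraries as 1 group (adjusted p = 0.0988). Against CD103- cells alone Ccl5 did not pass (-0.41 ± 0.66, adjusted p = 0.718). Cxcl10, another ligand of CXCR3, was higher, at 715 and 349 CPM in CD11b+ cells, against 55.5 to 113 CPM in the 4 CD11b- libraries (log2 fold change 2.50 ± 0.31, adjusted p = 0.00022).

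Cytokines and their receptors were higher at 12 of 42 genes (28.6%, against 14.0% of all genes tested) and lower at 9 (21.4%, against 11.0%). Il1rn, the antagonist of the interleukin 1 receptor, stood at 1706 and 1241 CPM in CD11b+ cells, against 22.5 and 7.01 CPM in CD103+ and 2.14 and 3.75 CPM in CD103- cells (log2 fold change 7.79 ± 0.44, adjusted p = 1.34e-06). Il1rl1, the receptor for interleukin 33, was at 66.1 and 49.5 CPM in CD11b+ cells, against 0.119 to 1.98 CPM in the 4 CD11b- libraries (log2 fold change 6.13 ± 0.72, adjusted p = 0.000154). Osm, oncostatin M, was at 116 and 129 CPM in CD11b+ cells, against 1.87 to 5.11 CPM in the 4 CD11b- libraries (log2 fold change 4.998 ± 0.31, adjusted p = 1.99e-06). Ifnb1, interferon β, was at 15.3 and 7.001 CPM in CD11b+ cells, against 0.0397 and 0.277 CPM in CD103+ and 0 and 0 CPM in CD103- cells (log2 fold change 8.25 ± 1.02, adjusted p = 0.000338). The CD11b- libraries held few counts of Ifnb1 or none, and the CD11b+ libraries lay above them.

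Tnf, Il6 and Il10, named after their values were seen, were all higher in CD11b+ cells. Il10 was at 58.6 and 31.4 CPM in CD11b+ cells, against 6.71 to 15.4 CPM in the 4 CD11b- libraries (log2 fold change 2.13 ± 0.32, adjusted p = 0.000805). Il6 was at 414 and 261 CPM in CD11b+ cells, against 52.2 to 169 CPM in the 4 CD11b- libraries (log2 fold change 2.09 ± 0.44, adjusted p = 0.0058) and Tnf at 77.2 and 38.1 CPM in CD11b+ cells, against 8.59 to 21.95 CPM in the 4 CD11b- libraries (log2 fold change 2.01 ± 0.36, adjusted p = 0.00219). Without CD11b+ replicate 1 the adjusted p was 0.0814 for Il6 and 0.0637 for Tnf. In the other direction, Il12b, the p40 chain of interleukins 12 and 23, was at 11.3 and 3.59 CPM in CD11b+ cells, against 212 and 394 CPM in CD103+ and 91.6 and 97.9 CPM in CD103- cells (log2 fold change -4.43 ± 0.52, adjusted p = 0.000243). Its groups did not overlap. Without either CD11b+ library, 5 of the 42 were lower.

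**Figure D4:**
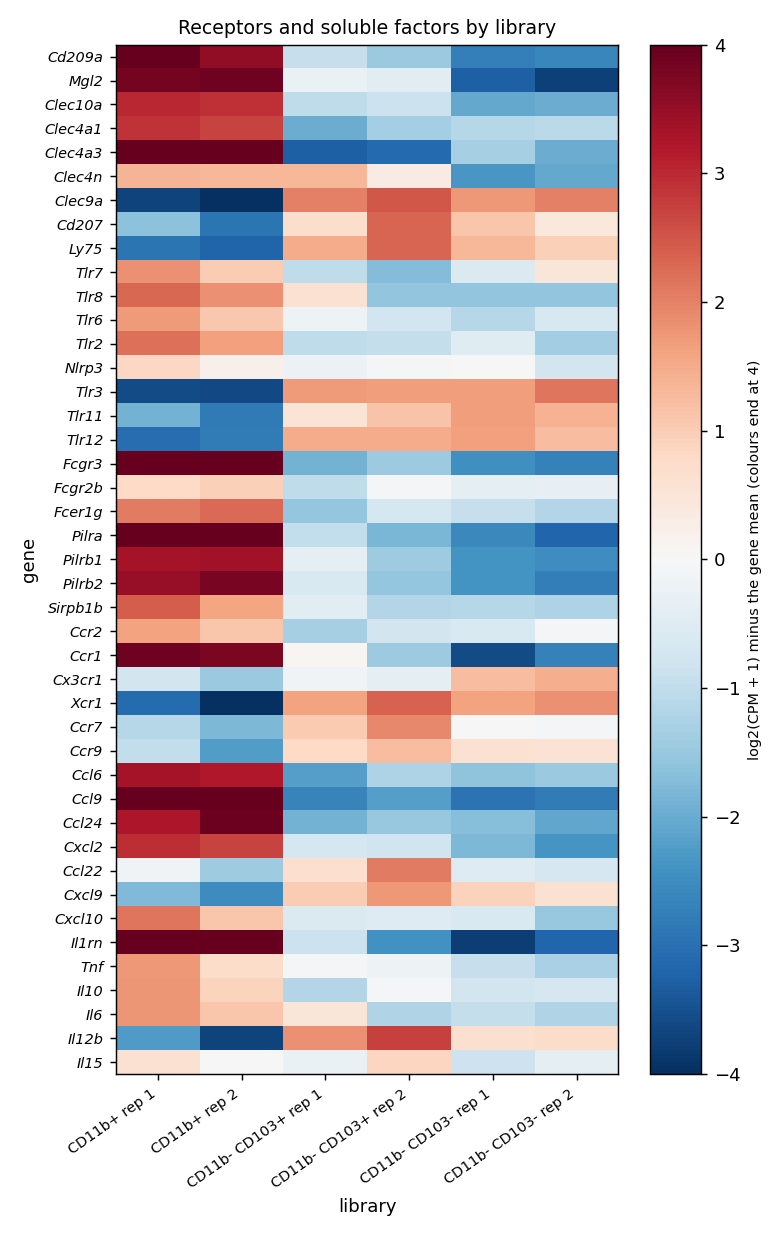
Log2(CPM + 1) minus the gene's mean over the 6 libraries for lectins, sensors, Fc and paired receptors, chemokine receptors, chemokines and cytokines, 1 row per gene and 1 column per library, CD11b+ libraries at the left. Colours end at 4 in either direction, and Fcgr3, Pilra, Ccl9 and Il1rn stand out as high in both CD11b+ libraries while Clec9a, Tlr3, Xcr1 and Il12b are low there.

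Costimulatory and checkpoint genes were higher at 8 of 31 and lower at 8 (25.8% each, against 14.0% and 11.0% of all genes tested). Havcr2, which encodes the checkpoint receptor TIM-3, stood at 20.8 and 10.95 CPM in CD11b+ cells, against 443 and 648 CPM in CD103+ and 352 and 364 CPM in CD103- cells (log2 fold change -4.77 ± 0.36, adjusted p = 7.06e-06). Tnfsf14, the ligand LIGHT, was at 24.9 and 25.3 CPM in CD11b+ cells, against 0.814 to 1.70 CPM in the 4 CD11b- libraries (log2 fold change 4.27 ± 0.72, adjusted p = 0.00157). Tnfsf12, the ligand TWEAK, was at 6.67 and 10.6 CPM in CD11b+ cells, against 0.678 to 1.66 CPM in the 4 CD11b- libraries (log2 fold change 2.76 ± 0.39, adjusted p = 0.000542). The groups did not overlap in these 3 genes. Leaving out CD11b+ replicate 1 or 2 gave 6 higher and 6 or 4 lower.

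Integrin chains were lower at 8 of 22 genes, or 5 without CD11b+ replicate 2, and higher at 1, Itgam. With all libraries this was 36.4% lower and 4.55% higher, against 11.0% and 14.0% of all genes tested. Itga3, a laminin-binding chain, was at 7.22 and 9.87 CPM in CD11b+ cells, against 51.2 to 111 CPM in the 4 CD11b- libraries (log2 fold change -3.32 ± 0.44, adjusted p = 0.00036). Itga1, a collagen-binding chain, was at 5.02 and 3.23 CPM in CD11b+ cells, against 25.2 to 48.3 CPM in the 4 CD11b- libraries (log2 fold change -3.25 ± 0.37, adjusted p = 0.000135). Itga8 was at 2.41 and 3.23 CPM in CD11b+ cells, against 19.1 to 41.98 CPM in the 4 CD11b- libraries (log2 fold change -3.32 ± 0.61, adjusted p = 0.0026). The adjusted p of Itga8 was 0.0519 without CD11b+ replicate 1. The summed levels of endothelial and adipocyte markers also lay below those of the CD11b- libraries. Summed CPM of 8 endothelial markers was 81.4 to 118 CPM in CD11b+ libraries, against 167 to 662 CPM in CD11b- libraries, and that of 6 adipocyte markers was 80.3 to 101.1 CPM in CD11b+ libraries, against 228 to 552 CPM in CD11b- libraries. Of the endothelial markers 5 of 8 were called lower, and their part in the lower integrin counts was not tested.

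Of 16 genes of MHC class II presentation, 4 were higher and 3 lower. The abundant β chain and the invariant chain did not pass. H2-Ab1, the β chain of I-A, was at 26219 and 29276 CPM in CD11b+ cells, against 15196 and 27421 CPM in CD103+ and 21247 and 16231 CPM in CD103- cells. H2-Ab1 had a log2 fold change of 0.47 ± 0.38 (95% interval -0.37 to 1.32, adjusted p = 0.41). Cd74, the invariant chain, was at 38009 and 37643 CPM in CD11b+ cells, against 22067 to 40531 CPM in the 4 CD11b- libraries. Cd74 had a log2 fold change of 0.41 ± 0.40 (95% interval -0.47 to 1.29, adjusted p = 0.505). For both, CD103+ replicate 2 lay near the CD11b+ libraries and the other CD11b- libraries lay below them. H2-Eb2, a weakly expressed class II β chain gene named after its values were seen, was at 9.63 and 9.87 CPM in CD11b+ cells, against 14.2 to 29.97 CPM in the 4 CD11b- libraries (log2 fold change -1.05 ± 0.34, adjusted p = 0.0448), and its call was lost in 4 of the 6 fits that left out 1 library and with the replicate block.

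Genes of the peptide loading step went in both directions. H2-DMa and H2-DMb2, which encode chains of the peptide exchanger H2-DM, were both higher. H2-DMa was at 2055 and 2548 CPM in CD11b+ cells, against 583 to 1065 CPM in the 4 CD11b- libraries (log2 fold change 1.55 ± 0.31, adjusted p = 0.00423). H2-DMb2 was at 352 and 358 CPM in CD11b+ cells, against 73.2 to 100.1 CPM in the 4 CD11b- libraries (log2 fold change 2.08 ± 0.18, adjusted p = 1.93e-05). Ctss, the protease that trims the invariant chain, was at 2195 and 1989 CPM in CD11b+ cells, against 396 to 713 CPM in the 4 CD11b- libraries (log2 fold change 2.06 ± 0.32, adjusted p = 0.000976). H2-Oa and H2-Ob, the chains of the inhibitor of H2-DM, went the other way, with H2-Oa at 7.43 and 8.80 CPM in CD11b+ cells, against 61.8 to 129 CPM in the 4 CD11b- libraries (log2 fold change -3.42 ± 0.51, adjusted p = 0.000814) and H2-Ob at 28.95 and 21.7 CPM in CD11b+ cells, against 194 to 331 CPM in the 4 CD11b- libraries (log2 fold change -3.26 ± 0.28, adjusted p = 1.9e-05). The groups did not overlap in any of the 5.

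Genes of MHC class I presentation were lower at 8 of 24 (33.3%, against 11.0% of all genes tested) and higher at 4 (16.7%, against 14.0%). Wdfy4, which is required for cross-presentation by cDC1, stood at 69.5 and 60.9 CPM in CD11b+ cells, against 775 and 966 CPM in CD103+ and 1367 and 733 CPM in CD103- cells (log2 fold change -3.87 ± 0.32, adjusted p = 1.44e-05). Tap1 and Tap2, the peptide transporter, were both lower. Tap1 was at 139 and 134 CPM in CD11b+ cells, against 281 to 406 CPM in the 4 CD11b- libraries (log2 fold change -1.31 ± 0.24, adjusted p = 0.00249). Tap2 was at 83.2 and 105 CPM in CD11b+ cells, against 227 to 315 CPM in the 4 CD11b- libraries (log2 fold change -1.48 ± 0.23, adjusted p = 0.0011). Rab43 (-1.64 ± 0.21), Nlrc5 (-1.52 ± 0.24), the transactivator of class I genes, and Tapbpl (-2.07 ± 0.37), a peptide editor, were lower too. B2m, the light chain, was at 3118 and 2344 CPM in CD11b+ cells, against 1293 to 3543 CPM in the 4 CD11b- libraries. B2m had a log2 fold change of 0.47 ± 0.32 (95% interval -0.24 to 1.18, adjusted p = 0.327). None of the 24 was higher without CD11b+ replicate 1, without CD11b+ replicate 2 or without CD103+ replicate 1, and 2 were higher without either CD103- library.

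Interferon-response genes changed in both directions, with 13 of 28 higher (46.4%, against 14.0% of all genes tested) and 6 lower (21.4%, against 11.0%). Ifi27l2a stood at 814 and 833 CPM in CD11b+ cells, against 53.2 and 43.1 CPM in CD103+ and 65.5 and 99.9 CPM in CD103- cells (log2 fold change 3.71 ± 0.24, adjusted p = 2.5e-06). Oas1a and Oasl1, of the oligoadenylate synthetase family, were both higher. Oas1a was at 63.3 and 85.5 CPM in CD11b+ cells, against 7.11 to 14.4 CPM in the 4 CD11b- libraries (log2 fold change 2.94 ± 0.27, adjusted p = 2.96e-05). Oasl1 was at 273 and 182 CPM in CD11b+ cells, against 19.7 to 36.9 CPM in the 4 CD11b- libraries (log2 fold change 3.05 ± 0.31, adjusted p = 6.41e-05). Ifi205, a DNA-binding member of the p200 family, was lower, at 15.1 and 10.2 CPM in CD11b+ cells, against 317 and 471 CPM in CD103+ and 299.8 and 505 CPM in CD103- cells (log2 fold change -4.96 ± 0.56, adjusted p = 0.000113). Stat2, a signal transducer of interferon receptors named after its values were seen, was lower, at 75.4 and 50.3 CPM in CD11b+ cells, against 154 to 204 CPM in the 4 CD11b- libraries (log2 fold change -1.51 ± 0.23, adjusted p = 0.000832). Without CD11b+ replicate 1 or 2 the list had 8 or 9 genes higher and 4 or 3 lower.

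Promoters of 3 genes induced by interferon, chosen after their values were seen, are shown because they hold the same motif as the Pilr windows, again in capitals. They are on the minus strand of GRCm38.p6 in RefSeq, at chr5:120907491-120907590, chr5:92349048-92349139 and chr1:174031835-174031934.
Oas1a: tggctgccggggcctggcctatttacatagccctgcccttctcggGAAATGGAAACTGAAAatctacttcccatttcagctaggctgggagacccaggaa
Cxcl10: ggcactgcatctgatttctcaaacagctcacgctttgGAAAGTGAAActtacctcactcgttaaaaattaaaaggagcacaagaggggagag
Ifi205: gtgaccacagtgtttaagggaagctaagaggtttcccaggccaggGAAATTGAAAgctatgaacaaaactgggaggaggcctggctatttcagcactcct
Oas1a and Cxcl10 were higher in CD11b+ cells and Ifi205 was lower. Oas1a holds 2 matches that overlap, both in capitals, and Ifi205 has a further match outside the stretch shown.

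Lysosomal genes were higher at 14 of 29 and lower at 3, or at 1 without either CD11b+ library. Ctsd, cathepsin D, stood at 1603 and 1863 CPM in CD11b+ cells, against 182 and 107 CPM in CD103+ and 82.9 and 55.9 CPM in CD103- cells (log2 fold change 4.11 ± 0.34, adjusted p = 1.46e-05). Ctsa, cathepsin A, was at 399 and 349.7 CPM in CD11b+ cells, against 59.5 to 81.1 CPM in the 4 CD11b- libraries (log2 fold change 2.42 ± 0.23, adjusted p = 4.14e-05). Gla, an α-galactosidase, was at 221 and 184 CPM in CD11b+ cells, against 29.5 to 48.2 CPM in the 4 CD11b- libraries (log2 fold change 2.40 ± 0.30, adjusted p = 0.000244). Atp6v0d2, a subunit of the proton pump, was at 3.64 and 2.33 CPM in CD11b+ cells, against 0 to 0.277 CPM in the 4 CD11b- libraries (log2 fold change 4.42 ± 0.87, adjusted p = 0.00416). The adjusted p of Atp6v0d2 was 0.0596 without CD11b+ replicate 1. Ppt1, a lysosomal thioesterase, was lower, at 131 and 129.6 CPM in CD11b+ cells, against 1662 and 3362 CPM in CD103+ and 2013 and 1979 CPM in CD103- cells (log2 fold change -4.10 ± 0.45, adjusted p = 9.27e-05). CD11b+ and CD11b- libraries did not overlap for these genes.

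Genes that make or sense eicosanoids were higher at 13 of 24 and lower at 3, or at 1 without either CD11b+ library or CD103+ replicate 1. Alox5, the 5-lipoxygenase that starts leukotriene synthesis, stood at 24.7 and 35.5 CPM in CD11b+ cells, against 0.238 and 0.317 CPM in CD103+ and 0.483 and 0.724 CPM in CD103- cells (log2 fold change 6.15 ± 0.28, adjusted p = 3.57e-07). Ptgs1, cyclooxygenase 1, was at 109 and 140.2 CPM in CD11b+ cells, against 5.34 to 21.7 CPM in the 4 CD11b- libraries (log2 fold change 3.21 ± 0.40, adjusted p = 0.000242). Pla2g7, which breaks down platelet-activating factor, was at 168 and 199 CPM in CD11b+ cells, against 2.31 to 9.70 CPM in the 4 CD11b- libraries (log2 fold change 5.15 ± 0.34, adjusted p = 2.84e-06). Ptgir, the prostacyclin receptor, was at 39.3 and 36.4 CPM in CD11b+ cells, against 0.271 to 1.75 CPM in the 4 CD11b- libraries (log2 fold change 5.10 ± 0.48, adjusted p = 3.33e-05). The CD11b+ libraries were the highest in all 4. Ptgdr2, a prostaglandin D2 receptor, had 2 counts in the CD11b+ libraries together, against 1.79 to 4.69 CPM in CD11b- libraries, a CD11b- to CD11b+ ratio of 27.6 with a 95% counting interval of 7.63 to 227.5, and its call was lost in 5 of the 6 fits that left out 1 library.

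Complement genes were higher at 7 of 19 and lower at 4, or at 2 without either CD11b+ library. With all libraries this was 36.8% higher and 21.1% lower, against 14.0% and 11.0% of all genes tested. Cfp, properdin, which stabilises the alternative pathway, was at 2019.8 and 2083 CPM in CD11b+ cells, against 118 to 198 CPM in the 4 CD11b- libraries (log2 fold change 3.81 ± 0.29, adjusted p = 7.26e-06). C5ar1, the receptor for C5a, was at 49.4 and 31.4 CPM in CD11b+ cells, against 0.588 to 2.42 CPM in the 4 CD11b- libraries (log2 fold change 5.06 ± 0.40, adjusted p = 1.08e-05). C1qc was at 22.3 and 45.8 CPM in CD11b+ cells, against 1.90 to 6.03 CPM in the 4 CD11b- libraries (log2 fold change 3.44 ± 0.36, adjusted p = 7.59e-05), alongside C1qb. Both CD11b+ libraries exceeded the 4 CD11b- libraries for each gene.

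Cell cycle genes hardly separated the groups, with 2 of 26 higher and 1 lower, below the shares over all genes. Ube2c was at 153 and 149 CPM in CD11b+ cells, against 38.5 to 115 CPM in the 4 CD11b- libraries (log2 fold change 1.17 ± 0.30, adjusted p = 0.0164). Aurkb was at 53.1 and 71.8 CPM in CD11b+ cells, against 27.4 to 46.6 CPM in the 4 CD11b- libraries (log2 fold change 0.79 ± 0.22, adjusted p = 0.0212) and Kif11 at 48.4 and 46.9 CPM in CD11b+ cells, against 61.2 to 151 CPM in the 4 CD11b- libraries (log2 fold change -0.99 ± 0.30, adjusted p = 0.0316). Each of these 3 calls was lost in 3 or 4 of the 6 fits that left out 1 library. Of 20 genes that respond to tissue dissociation, 4 were higher (Egr2, Ier3, Atf3 and Jund) and 1 was lower (Nr4a1), and DESeq2 called 7 higher and 2 lower. Over all genes tested, 14.0% were higher and 11.0% lower. The share of higher dissociation genes lay above the first value and that of lower ones below the second. Neither difference in share was tested. Egr2 was at 129 and 84.9 CPM in CD11b+ cells, against 22.3 to 38.03 CPM in the 4 CD11b- libraries (log2 fold change 1.80 ± 0.24, adjusted p = 0.000413). Ier3 was at 353 and 365 CPM in CD11b+ cells, against 88.3 to 188 CPM in the 4 CD11b- libraries (log2 fold change 1.48 ± 0.28, adjusted p = 0.00356). Atf3, Jund and Nr4a1 lost their calls without either CD11b+ library, and the part of dissociation in other results was not tested.

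**Figure D5:**
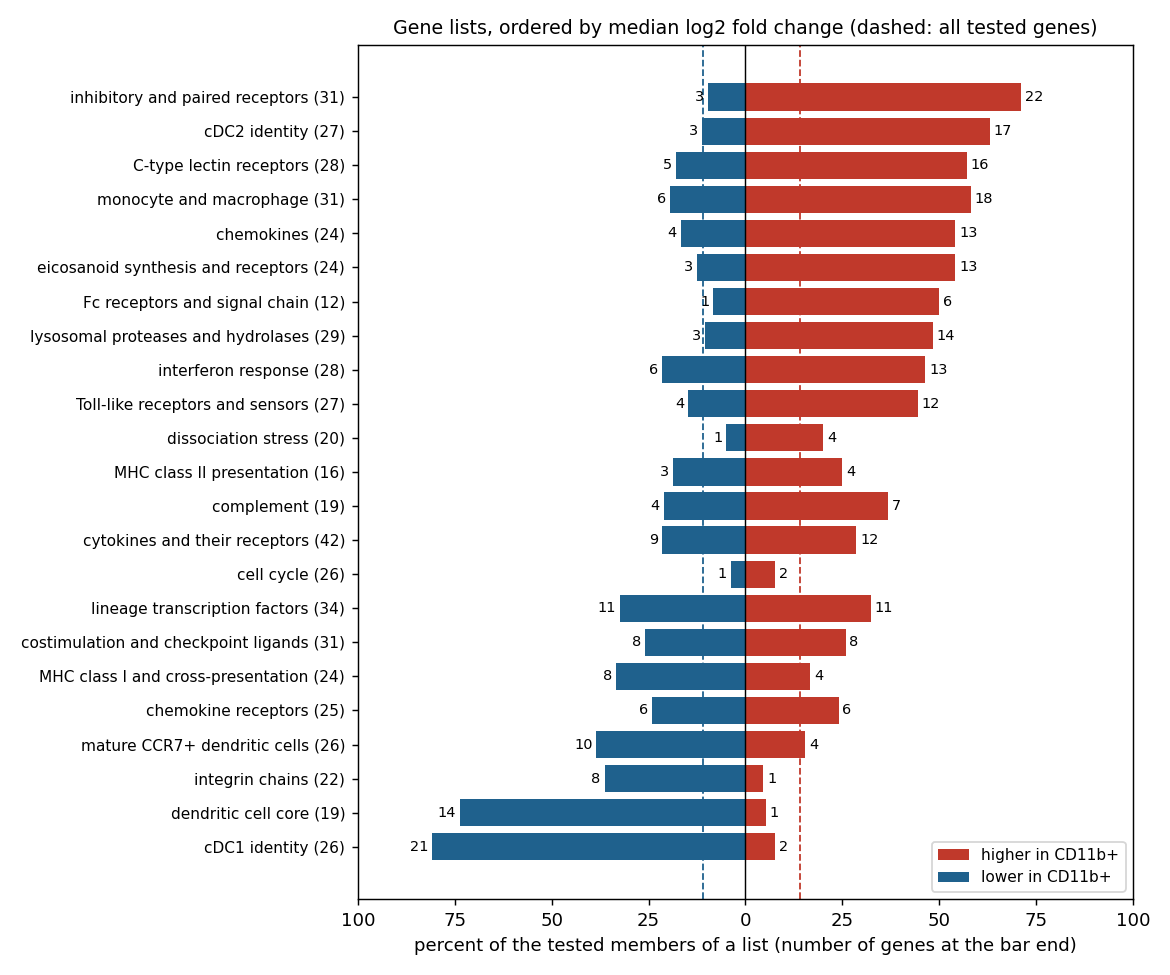
For each of 23 gene lists, with the number of tested members in parentheses, the percent of members higher in CD11b+ cells (red, to the right) and lower (blue, to the left), with counts at the bar ends and the shares over all tested genes (14.0% and 11.0%) as dashed lines. Lists are ordered by median log2 fold change, from inhibitory and paired receptors at 2.88 to cDC1 genes at -4.53.

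Markers of other cell types were read as summed CPM. Those of 10 T cell genes came to 428 to 594 CPM in CD11b+ libraries, against 20.99 to 41.9 CPM in CD11b- libraries. The difference lay in Cd2, at 192 and 234 CPM in CD11b+ cells, against 0.913 to 14.6 CPM in the 4 CD11b- libraries, and Il7r, at 385 and 185 CPM in CD11b+ cells, against 7.94 to 24.02 CPM in the 4 CD11b- libraries, both named after their values were seen, and none of the other 8 T cell genes passed. Those of 10 neutrophil genes came to 96.002 to 318 CPM in CD11b+ libraries, against 46.3 to 193 CPM in CD11b- libraries, with 4 of them, among which Ngp and Camp, at 0 in all 6 libraries. Of the 3 neutrophil genes tested, Retnlg and Csf3r were higher, both named after their values were seen. Retnlg, a paralog of Retnla that may share reads with it, was at 22.97 and 30.3 CPM in CD11b+ cells, against 0 to 0.436 CPM in the 4 CD11b- libraries (log2 fold change 6.79 ± 0.69, adjusted p = 0.000101), and Csf3r was at 1.58 and 1.97 CPM in CD11b+ cells, against 0.198 to 0.829 CPM in the 4 CD11b- libraries (log2 fold change 2.24 ± 0.40, adjusted p = 0.00209). With the 4 CD11b- libraries as 1 group Csf3r had an adjusted p of 0.0545. Plasmacytoid dendritic cell markers came to 224 to 339.8 CPM in CD11b+ libraries, against 219 to 286 CPM in CD11b- libraries, and epithelial markers to 468 to 1156 CPM in CD11b+ libraries, against 328 to 1165 CPM in CD11b- libraries, with overlap between the groups in both. Of 9 plasmacytoid genes tested, 2 were higher and 3 lower, and none of 10 epithelial genes passed.

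The CD11b- side was not uniform at a few genes. CD103+ and CD103- cells, compared with each other, differed at 5 of 15681 genes (0.0319%), all higher in CD103+ cells. At an unadjusted p under 0.05 there were 1000 genes, but over 15681 tests that threshold also passes many genes without a difference. Besides Itgae, whose product was used in the sort, and Mgl2, the 5 genes were Mmp12, Clec4n and Ms4a6d. Mmp12, the macrophage elastase, was at 123 and 73.1 CPM in CD11b+ cells, against 109 and 74.6 CPM in CD103+ and 0.414 and 0.0452 CPM in CD103- cells. Its CD11b+ libraries overlapped with the CD103+ libraries (log2 difference 0.10 ± 0.43, adjusted p = 0.897) and lay far above the CD103- libraries (8.90 ± 0.70, adjusted p = 2.26e-05).

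Clec4n, which encodes Dectin-2 and has close paralogs, was at 21.04 and 20.5 CPM in CD11b+ cells, against 20.4 and 9.82 CPM in CD103+ and 0.690 and 1.09 CPM in CD103- cells, and Ms4a6d at 24.5 and 28.005 CPM in CD11b+ cells, against 14.4 and 20.4 CPM in CD103+ and 4.14 and 2.67 CPM in CD103- cells. Both were called in CD11b+ against CD11b- cells (log2 fold change 2.48 ± 0.39, adjusted p = 0.00103 for Clec4n; log2 fold change 1.77 ± 0.25, adjusted p = 0.000501 for Ms4a6d), and neither passed against CD103+ cells alone (0.46 ± 0.43, adjusted p = 0.494 for Clec4n; 0.59 ± 0.29, adjusted p = 0.178 for Ms4a6d). With the 4 CD11b- libraries taken as 1 group the adjusted p was 0.643 for Mmp12, 0.354 for Clec4n and 0.171 for Ms4a6d. Of the 132 named genes that passed, 120 also passed against the CD103+ and the CD103- population taken singly. Most were named for the size of their difference, so this share does not carry over to all called genes.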

How the data were processed

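The authors deposited raw counts per gene for 10 libraries, made with featureCounts on mm10 per the submitters' processing notes. No source used here states the aligner, annotation, strandedness or tool versions, so overlapping and antisense genes cannot be told apart. Cells were used fresh after sorting, with an RNeasy Plus kit for RNA and a TruSeq RNA kit for libraries, and reads were pairs of 80 bases, per the labels' protocols and design text. The table held 27179 genes, of which 25275 were named from RefSeq and 18 from GENCODE.

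Counts were analysed with edgeR 4.0.16 in R 4.3.3: filterByExpr (minimum count 10, minimum total 15) left 15681 genes, TMM scaling was used, and the quasi-likelihood fit took in the 5 populations (5 residual degrees of freedom). The contrast was CD11b+ minus the mean of the CD103+ and CD103- populations. Benjamini-Hochberg correction ran over the tested genes, with calls at an adjusted p under 0.05. Standard errors divide the size of the log2 fold change by the root of F, and 95% intervals use the moderated degrees of freedom. Counting intervals and floors of 3 counts cover counting error only. Alternatives were DESeq2 1.42.0, its size factors, no filter, fewer libraries, other groupings, a replicate block and leaving out each library.

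Genes are named by rule: up to 15 per direction with the largest difference, not overlapping and at least 30 CPM on the higher side, up to 5 called members of each of 23 lists, fixed lineage genes, and genes called between CD103+ and CD103- cells. The comparison, the lists and the rule were chosen with earlier results of these data known. Genes outside the rule are said to be named after their values were seen, and so were Spi1, Fcgrt, Cxcl16 and Cxcl12. Promoter sequences are RefSeq's for GRCm38.p6 and matched 111 of 138 named genes. Scripts were tested on simulated data. A few genes are not reported here.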

Additional observations from a re-analysis of the deposited data

Results flagged for a closer look

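In 5 genes the difference of CD11b+ cells from CD103+ cells was not the same as their difference from CD103- cells, by the test of that difference in the same fit (edgeR's quasi-likelihood test, adjusted over all genes). The comparisons share the CD11b+ libraries. Mmp12 had the largest, 8.80 on the log2 scale (adjusted p = 0.00126), with a log2 fold change of 0.10 against CD103+ cells and 8.90 against CD103- cells. For Itgae, whose product was used in the sort, it was 4.66 (adjusted p = 0.0287), with -7.59 against CD103+ cells and -2.93 against CD103- cells. Clec4n had a value of 4.04 (adjusted p = 0.0376), and Ms4a6d one of 2.37 (adjusted p = 0.0376). Mgl2 had a value of 3.75 (adjusted p = 0.00128), with 4.25 against CD103+ cells and 7.995 against CD103- cells.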

How the results depend on the processing

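Of 132 genes named by rule that passed, 112 kept their call in all 13 alternatives run, and the other 20 lost it in at least 1 without a change of direction. The only signs that turned were those of genes that had not passed: with 1 library left out, Itgax ranged from -0.71 (without CD11b+ replicate 1) to 0.10 (without CD11b+ replicate 2), and Id2 from -0.47 (without CD11b+ replicate 1) to 0.30 (without CD11b+ replicate 2), with 0.17 without CD103+ replicate 2. Most genes named by rule were picked for the size of their difference, so their share does not carry over to all called genes. With all libraries 2202 genes were higher and 1727 lower. Leaving out 1 library at a time gave 1141 to 2032 higher and 558 to 1541 lower, with the lone library of a group assumed to vary like the others, and these fits have fewer samples. With DESeq2 there were 2380 higher and 2212 lower, and with the 6 dendritic cell libraries alone 2299 and 2239. The 5 genes called between CD103+ and CD103- cells became 150 without a filter on low counts, 150 by DESeq2 (113 in common), 3 with the replicate block, and 2 to 18 when 1 library was left out; the cause was not tested.

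Samples with the same replicate number did not deviate together in every pair of populations (r over the 10 pairs of -0.18 to 0.18, with -0.12 for CD11b+ with CD103+ cells, -0.18 for CD11b+ with CD103- cells and 0.18 for CD103+ with CD103- cells, across genes), so the numbers were not taken to pair the samples. With the replicate block 1988 genes were higher and 1480 lower. Of the 132 genes named by rule that passed, only Ptgdr2 lost its call under that block, and Cxcl12 and H2-Eb2 lost theirs among the genes of the text named after their values were seen. Low totals in CD11b+ replicate 2 limit what can be seen of genes under 0.539 CPM there.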

Other observations

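Genes outside the lists, apart from Fabp4, picked after their values were seen, are given by what they do, and none of these sets was tested as a group. Of genes that handle lipids, 4 of those looked at were higher and Fabp4 was lower. Lpl, lipoprotein lipase, stood at 1268 and 904 CPM in CD11b+ cells, against 20.9 and 19.3 CPM in CD103+ and 14.4 and 5.47 CPM in CD103- cells (log2 fold change 6.27 ± 0.39, adjusted p = 1.89e-06). Pltp, a phospholipid transfer protein, was at 1340.4 and 1442 CPM in CD11b+ cells, against 10.99 to 45.5 CPM in the 4 CD11b- libraries (log2 fold change 5.46 ± 0.41, adjusted p = 7.65e-06). Plin2, a coat protein of lipid droplets, was at 1665 and 1578 CPM in CD11b+ cells, against 142 to 154 CPM in the 4 CD11b- libraries (log2 fold change 3.45 ± 0.21, adjusted p = 1.83e-06), and Hilpda, an inhibitor of lipolysis, at 522 and 472 CPM in CD11b+ cells, against 28.5 to 48.6 CPM in the 4 CD11b- libraries (log2 fold change 3.73 ± 0.18, adjusted p = 3.89e-07). The CD11b+ libraries lay above all CD11b- libraries for these 4 genes, as they did at 23.8% of all genes tested. Fabp4, a fatty acid carrier that is also on the adipocyte list, was at 76.7 and 91.02 CPM in CD11b+ cells, against 214 to 492 CPM in the 4 CD11b- libraries (log2 fold change -2.12 ± 0.50, adjusted p = 0.0108), and its call was lost without either CD11b+ library.

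Hmox1, which breaks down haem, was at 814 and 748 CPM in CD11b+ cells, against 35.5 and 21.7 CPM in CD103+ and 28.7 and 19.9 CPM in CD103- cells (log2 fold change 4.89 ± 0.37, adjusted p = 7.4e-06). Slc7a11, the cystine importer, was at 68.6 and 39.3 CPM in CD11b+ cells, against 2.13 to 5.19 CPM in the 4 CD11b- libraries (log2 fold change 3.98 ± 0.31, adjusted p = 9.14e-06). Cybb, the catalytic chain of the phagocyte oxidase, was at 731 and 447 CPM in CD11b+ cells, against 17.5 to 66.8 CPM in the 4 CD11b- libraries (log2 fold change 3.97 ± 0.47, adjusted p = 0.000166). Aldh1a2, an enzyme that makes retinoic acid, was at 516 and 479 CPM in CD11b+ cells, against 19.7 and 49.3 CPM in CD103+ and 20.2 and 14.2 CPM in CD103- cells (log2 fold change 4.35 ± 0.39, adjusted p = 2.23e-05). None of these genes overlapped between the groups. Both CD11b+ libraries lay above all 4 CD11b- libraries at 23.8% of all genes tested.

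Among genes lower in CD11b+ cells, Mycl, a MYC family factor known from cDC1, was at 1.65 and 3.41 CPM in CD11b+ cells, against 52.5 and 69.6 CPM in CD103+ and 91.8 and 100.8 CPM in CD103- cells (log2 fold change -5.03 ± 0.60, adjusted p = 0.000166). Timd4, a receptor for phosphatidylserine, was at 6.40 and 3.41 CPM in CD11b+ cells, against 69.6 to 202 CPM in the 4 CD11b- libraries (log2 fold change -4.42 ± 0.34, adjusted p = 7.6e-06). Cst3, the protease inhibitor cystatin C, was at 1363 and 1787 CPM in CD11b+ cells, against 6151 to 11082 CPM in the 4 CD11b- libraries (log2 fold change -2.28 ± 0.38, adjusted p = 0.00156), and Aif1, an actin-binding protein of myeloid cells, at 11.003 and 13.3 CPM in CD11b+ cells, against 125 to 202 CPM in the 4 CD11b- libraries (log2 fold change -3.77 ± 0.29, adjusted p = 7.65e-06). All CD11b- libraries lay above both CD11b+ libraries for these 4 genes, as they did at 25.3% of all genes tested.

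Notch4, Flt1 and Ptprb, known from endothelium, were lower too. Notch4 was at 2.06 and 2.69 CPM in CD11b+ cells, against 35.1 to 82.3 CPM in the 4 CD11b- libraries (log2 fold change -4.73 ± 0.996, adjusted p = 0.00582), Flt1 at 10.04 and 8.80 CPM in CD11b+ cells, against 23.7 to 75.7 CPM in the 4 CD11b- libraries (log2 fold change -2.28 ± 0.59, adjusted p = 0.0163) and Ptprb at 13.3 and 16.3 CPM in CD11b+ cells, against 37.04 to 126 CPM in the 4 CD11b- libraries (log2 fold change -2.24 ± 0.51, adjusted p = 0.00853). All 3 calls were lost without either CD11b+ library. Of the 8 endothelial markers, 5 were called lower and 3 did not pass, and their part in these values was not tested.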
